A study of Mus musculus with 2 samples.

Results

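The genes described here are the transcriptional coactivators Yap1 (YAP) and Wwtr1 (TAZ), their DNA-binding partners Tead1, Tead2, Tead3 and Tead4, and 4 genes widely used as readouts of their activity, Ctgf, Cyr61, Ankrd1 and Amotl2. They were found by symbol, and all 10 were present among the 49492 genes of the count table, where Ctgf and Cyr61 carry these older names (Ccn2 and Ccn1 in current annotation). RNA was sequenced from colonies and organoids grown in a 3D matrix from mammary basal cells of wild-type adult female mice, sorted by flow cytometry. The study reports that, by flow cytometry, such cultures held mostly luminal and few basal cells in both groups. Levels below are therefore those of whole cultures and not of basal cells alone. One group (ctrl) was untreated, and the other (M2) was co-cultured with M2-like macrophages. The study's methods state that these macrophages were grown from bone marrow of C57/B6 mice, polarised with IL-4 and IL-13, and held in an insert with a porous membrane above the basal cells. Each group holds 1 library, so a difference here is one between 2 libraries and has no replicate check. The series text names a microarray, while the values are sequencing counts.

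In the Hippo pathway, the kinases MST1 and MST2 (genes Stk4 and Stk3) activate LATS1 and LATS2, which phosphorylate YAP and TAZ and thereby keep them in the cytoplasm or mark them for degradation. When the kinases are less active, YAP and TAZ enter the nucleus, bind TEAD proteins on DNA and switch on genes of growth, matrix contact and the cytoskeleton. This regulation acts mainly on the proteins and their location, which RNA levels do not measure. In the mammary gland, YAP and TAZ are known for their responses to stiffness and cell shape and for roles in basal and progenitor cells.

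There were 26912610 reads in ctrl and 29413844 in M2. Levels are given as CPM (reads per 1000000 of the scaled library, from which differences between libraries were taken) and as TPM (reads per kilobase of exon, scaled to sum to 1000000, for comparing genes with each other). Genes that differed by 2-fold or more with an adjusted p below 0.05 were called, and 19233 genes with 10 or more reads were tested. Of all genes tested, 8.16% were called higher in M2 and 6.55% lower, the background for the marker counts below. Basal markers were abundant in both libraries, with Krt14 at 2985 CPM in ctrl and 2393 in M2, and Krt5 at 2053 and 2902. The 8 basal markers summed to 7822 and 8181 CPM, with 1 called higher (Krt17, 220.3 and 576 CPM) and 1 called lower (Oxtr, 303 and 66.6 CPM). The 9 luminal markers summed to 3272 CPM in ctrl and 2440.4 in M2, with 6 of 9 called lower and 0 called higher, although the most read of them, Krt8, was at 1088 and 1261 CPM and the next, Krt18, at 509.7 and 494. The 9 fibroblast markers summed to 341 and 159.8 CPM, with 3 called lower and 2 higher. The most read were Col1a2 (called lower), at 162 and 50.6 CPM, and Col1a1 (not called), at 74.9 and 38.1. The 2 called higher were Fbln1, at 62 and 485 reads, and Dcn, at 51 and 157, and Lum (not called) had 10 and 3 reads. The 9 macrophage markers summed to 9.98 and 9.26 CPM, and 6 of them had 3 reads or fewer in each library. Adgre1, Tyrobp and Fcer1g had 0 reads in both. The 95% Poisson interval of 0 reads reaches 0.134 CPM in ctrl and 0.128 in M2, and the floor of 3 reads is 0.109 and 0.104 CPM. The most read macrophage markers were Cd68, at 170 and 165 reads, and Csf1r, at 94 and 92, while Lyz2 had 3 and 1, Fcgr1 1 and 2, Mrc1 1 and 5 and Ctss 5 and 2. The 6 endothelial markers summed to 2.18 and 2.81 CPM, with Pecam1 at 33 and 76 reads, Cdh5 at 11 and 2, Kdr at 11 and 0, Tek at 2 and 3, Emcn at 3 and 0 and Cldn5 at 0 in both. In such bulk RNA, fewer cells of a type and less RNA per cell cannot be told apart.

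Of the 10 genes, only Ankrd1 was called higher in M2, and 0 were called lower. Among all genes tested, 8.16% were called higher and 6.55% lower, so 1 of 10 is close to the background. The other 9 genes differed by less than 1.5-fold, as did 68.7% of all genes tested. The median log2 fold difference (M2 over ctrl) was -0.06 over the 10 genes and -0.0032 over all genes tested, and values of the 10 ran from -0.53 for Tead4 to 2.91 for Ankrd1.

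**Figure D1:**
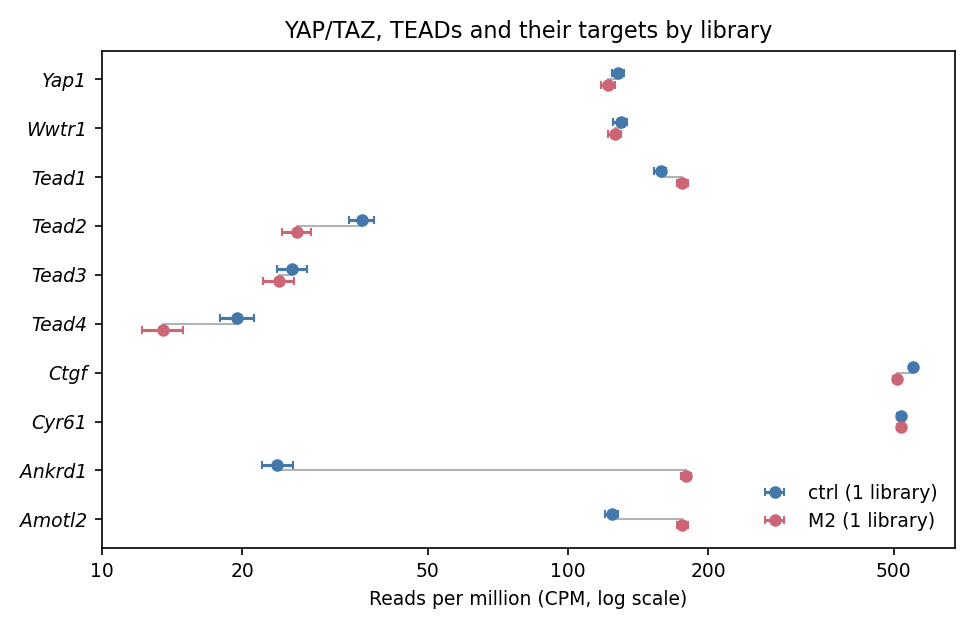
Reads per 1000000 (CPM, logarithmic horizontal axis) of each of the 10 genes in the ctrl library (blue) and the M2 library (red), with bars for the 95% Poisson intervals of the reads and a grey line joining both libraries. Ankrd1 went from 23.8 to 179.5 CPM, while the points of every other gene lie within 1.5-fold of each other.

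The 4 target genes are shown first, since these readouts of the pathway were unlike in their differences. The promoters of Ankrd1, Cyr61 and Amotl2 are printed because these genes share a role as YAP/TAZ readouts and had unlike differences. Each window is RefSeq's, on GRCm38.p6, from 250 bases before to 50 bases after the annotated start of transcription, on the strand of the gene. Capitals mark GGAATG or its reverse complement CATTCC, the core hexamer of the TEAD motif. The windows are chr19:36119795-36120094 on the minus strand for Ankrd1, chr3:145649936-145650235 on the minus strand for Cyr61 and chr9:102717554-102717853 on the plus strand for Amotl2.
Ankrd1: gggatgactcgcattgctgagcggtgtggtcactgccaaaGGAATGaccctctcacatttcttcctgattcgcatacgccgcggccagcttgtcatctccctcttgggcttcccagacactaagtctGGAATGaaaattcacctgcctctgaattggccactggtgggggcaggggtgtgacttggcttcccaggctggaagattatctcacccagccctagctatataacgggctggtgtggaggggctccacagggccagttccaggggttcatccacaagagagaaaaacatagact
Cyr61: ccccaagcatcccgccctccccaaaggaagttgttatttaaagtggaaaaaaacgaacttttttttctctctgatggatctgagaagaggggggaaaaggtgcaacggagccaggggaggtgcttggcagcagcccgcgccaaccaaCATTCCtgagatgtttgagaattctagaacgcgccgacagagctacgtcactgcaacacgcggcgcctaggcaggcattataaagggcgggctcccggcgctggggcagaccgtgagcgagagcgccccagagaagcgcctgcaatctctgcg
Amotl2: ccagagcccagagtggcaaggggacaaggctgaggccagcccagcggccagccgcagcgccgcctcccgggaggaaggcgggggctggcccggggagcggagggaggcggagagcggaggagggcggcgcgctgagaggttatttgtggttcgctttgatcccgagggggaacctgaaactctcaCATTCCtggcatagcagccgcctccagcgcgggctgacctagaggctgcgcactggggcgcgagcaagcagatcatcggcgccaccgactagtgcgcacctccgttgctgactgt

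The Ankrd1 window held 2 such hexamers, which began 210 and 123 bases before the start. The Cyr61 window held 1, which began 103 bases before it, and the Amotl2 window 1, which began 65 bases before it. Of the 10 genes, 7 had a window in the table, with 10 windows among them (2 for Wwtr1 and 3 for Tead3). The hexamer was present in 8 of these 10 windows and in 6 of the 7 genes, the exception being Tead2, against 14.7% of the 32851 windows of all genes. Windows of 1 gene overlap and are not independent. The AP-1 motif TGANTCA, searched on both strands, was in 0 of the 10 windows (7.81% of all windows), and the CArG box of serum response factor was also in 0 (1.63% of all windows). A letter match is a description of the sequence and not a binding site, and the 3 windows printed here all held the hexamer although their fold differences were unlike. No window was given for Tead1, Tead4 and Ctgf.

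Ankrd1 encodes a cardiac and stretch-responsive ankyrin repeat protein of the nucleus and sarcomere. It lies on the minus strand at chr19:36111965-36119844 (coordinates here and below are those of the count table, GRCm38). It had 655 reads in ctrl and 5173 in M2, or 23.8 CPM (95% Poisson interval 22.1 to 25.7) and 179.5 CPM (175 to 184). The M2 library was thus 7.52-fold higher (95% Clopper-Pearson interval 6.94 to 8.18), a log2 fold difference of 2.91 (2.79 to 3.03). Of the genes tested, 289 had a higher log2 fold difference. Per length, its level went from 35.1 TPM, place 4182 among the genes tested, to 256 TPM, place 515. These intervals cover counting error only. With a biological coefficient of variation (BCV) assumed at 0.2, the edgeR exactTest gave Ankrd1 an adjusted p of 4.94e-09 and called 5.01% of genes higher. At an assumed BCV of 0.4 the adjusted p was 0.067, so the call was lost, and 0.910% of genes were called higher.

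Cyr61 and Ctgf encode secreted matricellular proteins of the CCN family, which bind integrins and matrix. Cyr61, on the minus strand at chr3:145646976-145649981, had 14226 reads in ctrl and 14903 in M2, or 518 CPM (509 to 526) and 517 CPM (509 to 526). Its log2 fold difference was -0.0021 (-0.04 to 0.03), and 0.380% of genes tested had a smaller absolute difference. The sign of this value changed with the scaling, to 0.02 with DESeq2 size factors, and no direction is given for Cyr61. Ctgf, on the plus strand at chr10:24595442-24598683, had 15081 reads in ctrl and 14606 in M2, or 549 CPM (540.3 to 558) and 507 CPM (499 to 515). Its log2 fold difference was -0.12 (-0.15 to -0.08). Ctgf shares 665 exonic bases with Gm15270 on the opposite strand, which had 3787 and 4064 reads. The use of strand in counting is not stated in the sources used here, so reads of that pair cannot be told apart with certainty.

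Amotl2 encodes an angiomotin family protein of cell junctions that binds YAP and holds it outside the nucleus, so it is at once a target and an inhibitor. It lies on the plus strand at chr9:102716672-102733418 and had 3407 reads in ctrl and 5073 in M2, or 124 CPM (119.9 to 128) and 176 CPM (171 to 181). The M2 library was 1.42-fold higher (1.36 to 1.48), which is under the 2-fold threshold, and 64.0% of genes tested had a smaller absolute difference.

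Ratios within a library do not depend on the scaling between libraries, and they show the same unequal differences. Those to Cyr61 were chosen after the values had been seen and are descriptions. Per length, Ankrd1 stood at 0.0527 of Cyr61 in ctrl (0.0486 to 0.0570) and 0.397 in M2 (0.385 to 0.410), a 7.54-fold difference (6.93 to 8.22). Amotl2 stood at 0.0769 of Cyr61 in ctrl and 0.109 in M2, a 1.42-fold difference (1.35 to 1.49). Ctgf stood at 0.748 and 0.692 of Cyr61, and its ratio in M2 was 0.925 times that in ctrl (0.895 to 0.955).

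**Figure D2:**
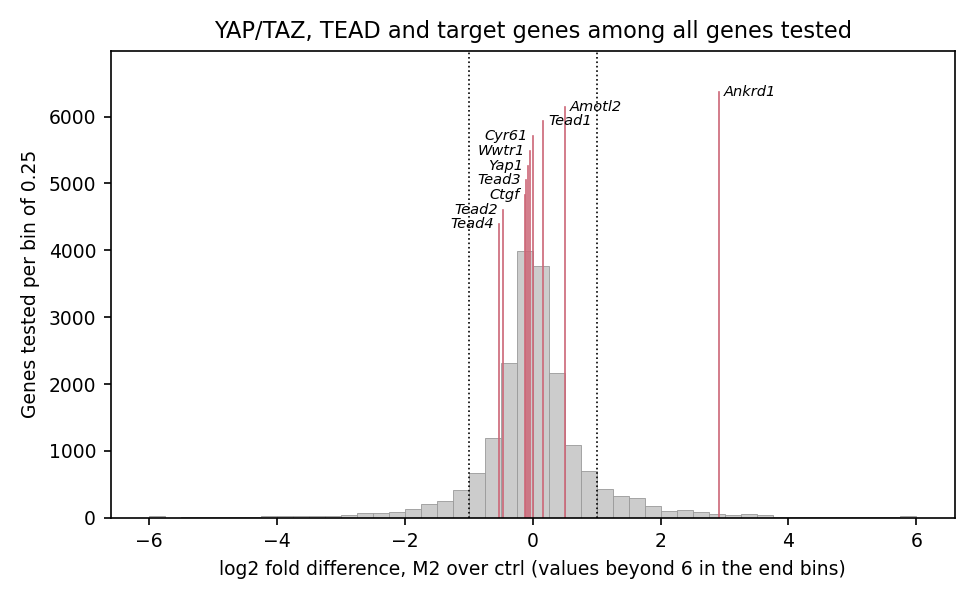
Log2 fold difference (M2 over ctrl) of the 10 genes, as labelled red lines whose height carries no value, over a histogram of the 19233 genes tested (vertical axis, genes per bin), with dotted lines at 2-fold. Ankrd1 lies at 2.91, far to the right of the bulk of genes, and the other 9 genes lie between -0.53 and 0.50, where most genes are.

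The coactivators were expressed at like levels in both libraries. Yap1, on the minus strand at chr9:7931999-8004596, had 3520 reads in ctrl and 3507 in M2, or 128 CPM (124 to 132) and 122 CPM (118 to 126). Its log2 fold difference was -0.07 (-0.14 to -0.01), an interval that leaves out 0 by counting error only, and 13.9% of genes tested had a smaller absolute difference. Wwtr1, on the minus strand at chr3:57455649-57575910, had 3563 reads in ctrl and 3633 in M2, or 129.7 CPM (125 to 134) and 126 CPM (122 to 130.2). Its log2 fold difference was -0.04 (-0.11 to 0.03). Although the read counts of the pair were close, Yap1 has a longer annotated exonic length, 9257 bases against 4779 for Wwtr1. Per that length, Wwtr1 stood higher in both libraries. This order rests on the annotated lengths, as do all levels per length here. Which transcripts of a gene were expressed was not measured, and the intervals do not cover it. The ratio of Yap1 to Wwtr1 per length was 0.510 in ctrl (0.487 to 0.534) and 0.498 in M2 (0.476 to 0.522). The ratio in M2 was 0.977 times that in ctrl (0.914 to 1.04), and Fisher's exact test of the reads, two-sided, gave p = 0.492. Both levels summed to 107 TPM in ctrl and 99.7 TPM in M2. Yap1 shares 116 exonic bases with Gm20416 on the opposite strand, which had 205 and 220 reads.

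TEAD proteins bring YAP and TAZ to DNA and hold little activating capacity of their own. All 4 genes were detected in both libraries. Tead1, on the plus strand at chr7:112679318-112906807, had 4327 reads in ctrl and 5071 in M2, or 158 CPM (153 to 162) and 176 CPM (171 to 181). Tead2, on the plus strand at chr7:45215753-45233644, had 992 and 755 reads, or 36.1 CPM (33.9 to 38.4) and 26.2 CPM (24.4 to 28.1). Their log2 fold differences were 0.16 (0.10 to 0.22) for Tead1 and -0.46 (-0.60 to -0.33) for Tead2, so that the intervals lay on opposite sides of 0.

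Tead3, on the minus strand at chr17:28331671-28350805, had 704 reads in ctrl and 691 in M2, or 25.6 CPM (23.8 to 27.6) and 24.0 CPM (22.2 to 25.8), and its log2 fold difference of -0.10 had an interval that includes 0 (-0.25 to 0.06). Tead4, on the minus strand at chr6:128224288-128300823, had 536 and 390 reads, or 19.5 CPM (17.9 to 21.2) and 13.5 CPM (12.2 to 14.9). Its log2 fold difference of -0.53 (-0.72 to -0.34) was the lowest of the 10 genes, and 65.3% of genes tested had a smaller absolute difference. No TEAD gene passed the 2-fold threshold. With a BCV assumed at 0.1, the adjusted p by the edgeR exactTest was 0.125 for Tead2 and 0.0868 for Tead4.

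Within the family, Tead1 held 38.2% of the reads per kilobase in ctrl and 46.9% in M2. Tead2 held 24.8% and 19.8%, Tead3 19.2% and 19.7%, and Tead4 17.8% and 13.6%. The family rested on 6559 reads in ctrl and 6907 in M2, and its summed level was 79.1 TPM in ctrl and 69.7 TPM in M2. The ratio of Tead1 to Tead4 per length was 2.14 in ctrl (1.96 to 2.35) and 3.45 in M2 (3.11 to 3.83), which is 1.61-fold higher in M2 (1.40 to 1.85). The ratio of Tead1 to Tead2 was 1.54 in ctrl and 2.37 in M2, which is 1.54-fold higher (1.39 to 1.71). Both ratios were chosen after the values had been seen. Of the stretches of 50 bases in the annotated transcripts, Tead3 and Tead4 share 10 and the other 8 genes share none with another of the 10. Only exact matches among the 10 genes were counted, and reads counted on a wrong gene were not measured.

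**Figure D3:**
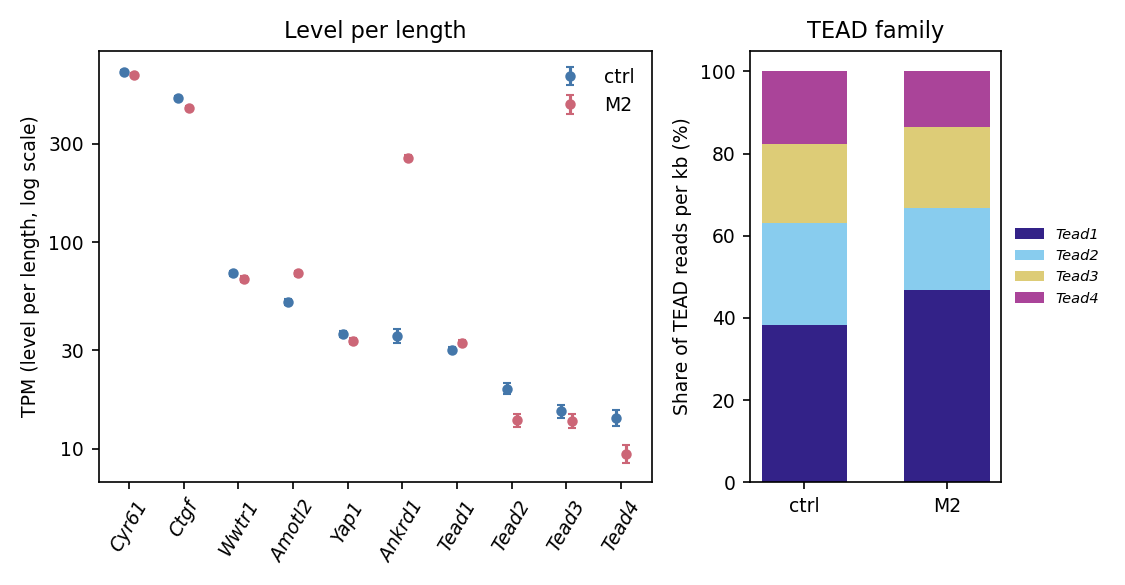
Left, level per length (TPM, logarithmic axis) of the 10 genes, ordered by their level in ctrl, with a blue point for the ctrl library, a red point for the M2 library and bars for 95% Poisson intervals. Right, stacked share (%) of the reads per kilobase of the TEAD family held by each of its 4 genes, where the share of Tead1 is 38.2% in ctrl and 46.9% in M2.

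Ordered by level per length in ctrl, Cyr61 came first at 667 TPM (656 to 678), then Ctgf at 499 (491 to 507), Wwtr1 at 70.6 (68.3 to 72.9) and Amotl2 at 51.3 (49.6 to 53.0). Yap1 at 36.0 (34.8 to 37.2) and Ankrd1 at 35.1 (32.5 to 37.9) did not differ beyond their counting intervals. Tead1 at 30.2 (29.3 to 31.1) and Tead2 at 19.6 (18.4 to 20.9) followed, and Tead3 at 15.2 (14.1 to 16.3) and Tead4 at 14.1 (12.9 to 15.4) overlapped. Cyr61 and Ctgf held places 152 and 209 among the genes tested.

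In M2, Cyr61 at 646 TPM (636 to 656) and Ctgf at 447 (439.5 to 454) remained the highest, in places 174 and 282. Ankrd1 followed at 256 (249.5 to 264), above Amotl2 at 70.6 (68.7 to 72.6) and Wwtr1 at 66.5 (64.4 to 68.7), whose intervals meet. Yap1 at 33.2 (32.1 to 34.3) and Tead1 at 32.7 (31.8 to 33.6) overlapped, as did Tead2 at 13.8 (12.8 to 14.8) and Tead3 at 13.7 (12.7 to 14.8), while Tead4 was the lowest at 9.49 (8.57 to 10.5). The 4 targets summed to 1253 TPM in ctrl and 1419.8 in M2. This sum is not a shared rise of the 4. Ankrd1 went from 35.1 to 256 TPM and Amotl2 from 51.3 to 70.6, while Cyr61 (667 and 646) and Ctgf (499 and 447) were not higher.

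Of the 7 genes of the kinase core, 0 were called in either direction, against 8.16% higher and 6.55% lower of all genes tested. In a list of 7, a count of 0 is close to the background. All 7 differed by less than 1.5-fold, as did 68.7% of all genes tested. The median log2 fold difference was -0.29, against -0.0032 for all genes tested. Stk4, the gene of MST1, had 3464 reads in ctrl and 2980 in M2 (log2 fold difference -0.29). Mob1b and Mob1a encode the adaptors through which LATS kinases are activated. Mob1b had 3315 and 2730 reads (-0.35), and Mob1a had 2813 and 3167 (0.10). Lats1 and Lats2, named for their role and not by read number, had 2598 and 2409 reads (-0.18) and 1503 and 1150 reads (-0.46).

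Of 17 upstream regulators, 0 were called higher and 2 lower, against 8.16% and 6.55% of all genes tested, and the median log2 fold difference was -0.13. The 2 calls in a list of 17 are few, and nothing particular to the list is read from them. The called genes encode a pair of giant cadherins, a receptor and its ligand. Fat4 fell from 418 reads in ctrl (15.2 CPM) to 177 in M2 (6.14 CPM), a log2 fold difference of -1.30 (-1.57 to -1.05). Dchs1, the ligand, fell from 304 reads (11.1 CPM) to 109 (3.78 CPM), a log2 fold difference of -1.54 (-1.88 to -1.23). Their adjusted p by the edgeR exactTest at an assumed BCV of 0.2 was 0.0357 and 0.00989. The summed fibroblast markers were at 341 CPM in ctrl and 159.8 in M2, with 3 of the 9 called lower and 2 called higher, and their part in this result was not tested. Of the uncalled regulators with the most reads, the kinase gene Map4k4 had 15324 and 22439 (log2 fold difference 0.48), Amotl1, a relative of Amotl2, had 9295 and 11568 (0.25), and the kinase gene Taok1 had 4249 and 4011 (-0.15).

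VGLL proteins compete with or stand in for YAP and TAZ on TEADs. Vgll1 and Vgll2 had 0 reads in both libraries. Neither gene tested was called, against 8.16% called higher and 6.55% called lower of all genes tested. Vgll4, the member known to oppose YAP, had 2661 reads in ctrl and 1969 in M2 (log2 fold difference -0.50, -0.59 to -0.42), and Vgll3 had 496 and 760 (0.55, 0.38 to 0.71).

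Among 18 further genes described as YAP/TAZ targets, 17 were tested, 1 was called higher and 1 lower, against 8.16% and 6.55% of all genes tested, and 10 differed by less than 1.5-fold, as did 68.7% of all genes tested. Each count of 1 is close to its background. Their median log2 fold difference was -0.18, with 7 positive and 10 negative values. Nt5e, which encodes the ectoenzyme CD73 that makes adenosine, rose from 792 reads (28.8 CPM) to 2919 (101 CPM), 3.51-fold (3.25 to 3.80), with an adjusted p of 0.000605 by the edgeR exactTest at an assumed BCV of 0.2. Igfbp3, which encodes a binding protein of insulin-like growth factors, fell from 7972 reads (290.2 CPM) to 3846 (133 CPM), a log2 fold difference of -1.12 (-1.18 to -1.07). Its call was lost at that BCV, where the adjusted p by exactTest was 0.074. Of the uncalled targets with the most reads, the receptor tyrosine kinase gene Axl had 6567 and 11282 (log2 fold difference 0.71), Myof had 8305 and 7862 (-0.15), and Ptpn14, a phosphatase gene counted among the upstream regulators too, had 4913 and 3230 (-0.67). Lats2 is likewise in both the target list and the kinase core.

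Of the other 4 CCN family genes, 2 had enough reads to be tested. Wisp2 was called higher and 0 were called lower, against 8.16% and 6.55% of all genes tested. In a list of 2 tested genes, nothing particular to the list is read from this. Wisp2 rose from 52 reads (1.89 CPM) to 154 (5.34 CPM), a log2 fold difference of 1.48 (1.03 to 1.98), with an adjusted p of 0.0248 by the edgeR exactTest at an assumed BCV of 0.2. Wisp1 had 194 and 208 reads (0.03, -0.26 to 0.32). Nov had 0 reads in both libraries and Wisp3 had 5 and 4. Per length, Wisp2 reached 7.0 TPM in M2, against 646 for Cyr61 and 447 for Ctgf, so the family's level in both libraries was almost all that of Cyr61 and Ctgf.

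Actin cytoskeleton genes and targets of serum response factor (SRF) are often read beside YAP/TAZ targets, since both programmes respond to actin tension. Of 12 such genes, 2 were called higher and 0 lower, against 8.16% and 6.55% of all genes tested. Their median log2 fold difference was 0.29, against -0.0032 for all genes tested, and 10 values were positive. Actg2, a smooth muscle actin gene, rose from 533 reads (19.4 CPM) to 2042 (70.9 CPM), 3.65-fold (3.32 to 4.02). Tpm2, a tropomyosin gene, rose from 13197 reads (480.4 CPM) to 31402 (1089.6 CPM), 2.27-fold (2.22 to 2.31). The adjusted p by the edgeR exactTest at an assumed BCV of 0.2 was 0.000398 for Actg2 and 0.0517 for Tpm2, so that the call of Tpm2 was lost there. The uncalled genes with the most reads were Flna at 39909 and 48862 reads (log2 fold difference 0.22), Tpm1 at 31037 and 46663 (0.52) and Tagln at 28476 and 28878 (-0.05). Srf itself, named for its role, had 2142 and 2253 reads (0.0036).

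**Figure D4:**
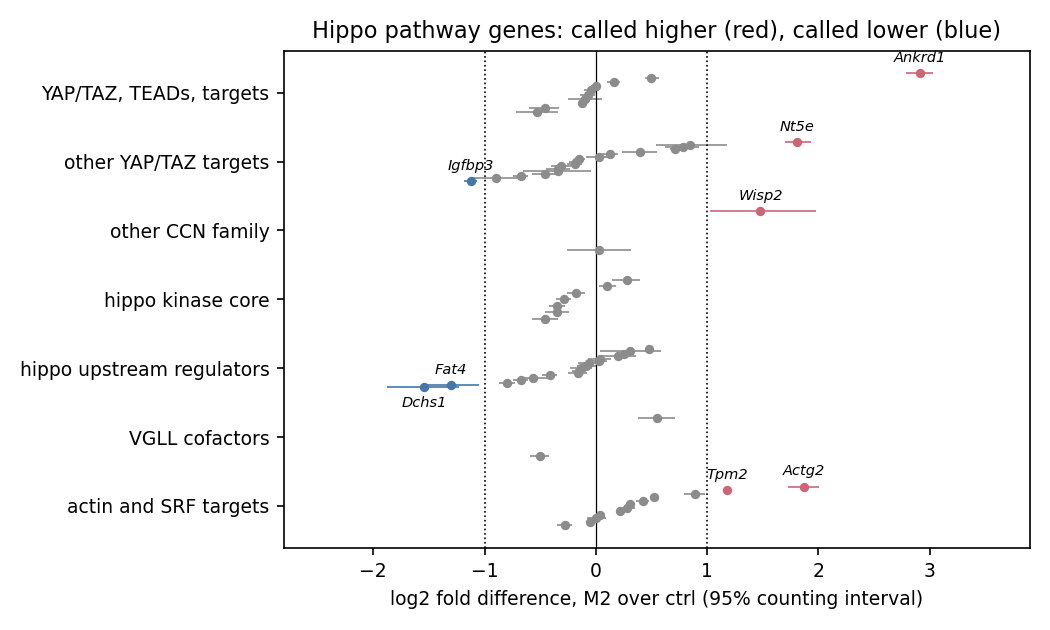
Log2 fold difference (M2 over ctrl) of every tested gene of the 10 genes and of the 6 lists of related genes, with 95% counting intervals, where red points were called higher, blue points called lower and grey points not called, and dotted lines mark 2-fold. Ankrd1 at 2.91 is the highest point, Dchs1 at -1.54 the lowest, and the kinase core lies between -0.46 and 0.28.

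At an assumed BCV of 0.4, the edgeR exactTest called 0 genes of the 6 lists in either direction. Of all 19233 genes tested it called 175 higher and 130 lower there, so a count of 0 is close to the background. Among the 7 list genes that the binomial test called, its adjusted p-values ran from 0.599 for Actg2 and 0.653 for Nt5e upwards.

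The call of Ankrd1 came with basal markers at 7822 and 8181 CPM, luminal markers at 3272 and 2440.4 CPM and fibroblast markers at 341 and 159.8 CPM in ctrl and M2. The part of these shifts in its difference was not tested. The 9 macrophage markers summed to 9.98 CPM in ctrl and 9.26 in M2, with Adgre1, Tyrobp and Fcer1g at 0 reads and Cd68 and Csf1r the most read, and their part was not tested either.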

How the data were processed

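The authors deposited 1 table of raw read counts per gene for 1 ctrl and 1 M2 library (26912610 and 29413844 reads), with exonic lengths and coordinates. The labels name a spin column kit for the RNA and SMARTER mRNA chemistry for the libraries, whereas the study's methods name another reagent for extraction. The submitters' processing notes name GRCm38 and mm10. The aligner, counting tool and use of strand are not given in the sources used here. Of the 10 genes, 8 have the coordinates of GENCODE release 21 of the mouse series, and Tead3 and Ankrd1 differ from it.

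A two-sided exact binomial test (scipy 1.17.1) was run for the 19233 genes whose reads added up to 10 or more, on TMM effective library sizes (edgeR 4.0.16 under R 4.3.3, factors 1.02 in ctrl and 0.980 in M2), adjusted by Benjamini-Hochberg. Log2 fold differences used a pseudocount of 1. The test compares the libraries, not the conditions, since 1 library per group allows no dispersion. Intervals (95%; Clopper-Pearson for fold differences, Poisson for levels) and floors (3 reads) cover counting error only, since no molecular identifiers are stated. The edgeR exactTest was also run with assumed BCVs of 0.1, 0.2 and 0.4, and DESeq2 1.42.0 was used for size factors alone. The functions were tested on simulated data.

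The genes, lists, tests and alternatives were chosen with earlier results of these data known. Named genes are the 10 and every called gene of 6 pathway lists with up to 3 uncalled ones of most reads. For marker lists they are the pair of most reads, defining markers at 0 to 3 reads and further markers. Of the luminal list only Krt8 and Krt18 are named. No likeness of patterns was computed, since 2 libraries give no pattern. Protein sequences were not analysed here. Other libraries that the study describes were not analysed here.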

Additional observations from a re-analysis of the deposited data

How the results depend on the processing

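Log2 fold differences of the 10 genes kept their direction and side of the thresholds in 97 of 100 combinations of gene and alternative. The exceptions were Cyr61, whose value turned to 0.02 with DESeq2 size factors and 0.0013 with upper quartile factors, and Ankrd1, which stayed at 2.91 but had an adjusted p of 0.067 by the edgeR exactTest at an assumed BCV of 0.4, where 0 of the 10 were called higher. Over all alternatives Ankrd1 lay between 2.85 and 2.93. Many of the 100 combinations could hardly differ, since the filters, pseudocounts and assumed BCVs left the log2 fold differences almost unchanged. The 9 uncalled genes also lay within 1.5-fold, far from the 2-fold threshold. The count of 97 is therefore no measure of robustness. The median of all genes moved from -0.0032 to -0.06 with total reads, 0.02 with DESeq2 factors and 0.0003 with upper quartile factors. Genes called higher and lower numbered 797 and 583 with at least 1 CPM in both libraries, 964 and 691 at BCV 0.2, and 175 and 130 at BCV 0.4. At BCV 0.2, 0 further targets were called lower and 1 actin gene higher. At BCV 0.4, 0 upstream regulators were called lower, 0 further targets higher and 0 lower, 0 CCN genes higher and 0 actin genes higher. An assumed BCV widens the noise by construction. Shares of TEAD reads without division by length were 66.0% in ctrl and 73.4% in M2 for Tead1, 15.1% and 10.9% for Tead2, 10.7% and 10% for Tead3, and 8.17% and 5.65% for Tead4. The DESeq2 test was not run, since it needs replicates, and protein identity was not run for lack of a protein table. No paired analysis was possible because there is 1 library a group. No library could be left out, and depth limits the genes at 0 to 5 reads.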
